A study of Homo sapiens with 54 samples.

Results

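Transcripts of 10 members of the TNF receptor superfamily, including the death receptors, were examined in 2 triple negative breast cancer (TNBC) lines treated with the PARP inhibitor olaparib and with cisplatin (CDDP). The genes were chosen by name, as rows of the deposited table with the symbols FAS, TNFRSF10A, TNFRSF10B, TNFRSF10D, TNFRSF12A, TNFRSF1A, TNFRSF1B, TNFRSF21, CD40 and TNFRSF9, and all 10 were among its 27470 genes. SUM1315 cells carry a BRCA1 mutation and MDA-MB-468 cells have wild type BRCA1. Each line had 9 conditions of 3 libraries. Parental SUM1315 cells were left untreated or received 8 µM olaparib, CDDP at 2 or 4 µM, or olaparib with either dose of CDDP, and parental MDA-MB-468 cells received 3 µM olaparib, CDDP at 1 or 2.5 µM, or both. Olaparib resistant (OlaR) derivatives had been selected by rising olaparib and were maintained in it throughout, at 25 µM for SUM1315 and 15 µM for MDA-MB-468, so the OlaR controls without CDDP also carried the drug, at a dose above that of the olaparib-treated parental cells. They were then treated with the same CDDP doses. Whether an OlaR line is 1 clone is not stated in the sources used here. Nor is it stated that the libraries of a condition came from separate cultures, so p-values measure the spread between these libraries, which may be technical.

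Receptors of this family sit in the plasma membrane and bind trimeric ligands related to TNF. Some carry a cytoplasmic death domain, through which FAS and the TRAIL receptors recruit the adaptor FADD and the initiator caspase CASP8 to start apoptosis, and through which TNFRSF1A assembles a complex with TRADD, RIPK1 and TRAF2 that can turn on NF-κB. Others lack a death domain and bind TRAF adaptors directly, and decoy receptors bind ligand without passing on a full death signal. FAS and TNFRSF10B are known as genes that DNA damage can induce through p53. Both lines express mutant p53, and a role of p53 in the changes below was not tested.

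A library held 4977284 to 7540920 reads in parental and 3446613 to 4665505 in OlaR SUM1315 cells, and 5574767 to 9268162 in parental and 2070301 to 4676284 in OlaR MDA-MB-468 cells. The deposited values are read counts that edgeR had adjusted to 1 library size of 5585170 within each condition, called adjusted read counts here, and a low value in a library carries part of its condition's mean. Reads came from the 3′ ends of transcripts, so levels are compared for 1 gene across conditions and not between genes. Replicate 3 of untreated SUM1315 cells stood apart from its partners, since its reads gave a chi-square divided by its degrees of freedom of 15.197 and 20.11 against them, where the other pair gave 3.592, and replicates 2 and 3 of SUM1315 with 2 µM CDDP gave 22.073. Replicate 3 of olaparib-treated parental SUM1315 cells gave 8.715 and 8.729 against its partners, where the other pair gave 2.902. Over all pairs within a condition the median was 3.23. Results that change without one of these libraries are given with and without it. MDA-MB-468 libraries had EPCAM at 2630 to 3793 adjusted read counts and VIM at 7.99 to 53.8. SUM1315 libraries had no EPCAM read in 23 of 27, no KRT19 read in 20 of 27, KRT18 at 231 to 597.8 and VIM at 7930 to 13250. The keratins listed as basal markers did not all go with VIM, a mesenchymal marker. KRT5 was at 0 to 28.4 in SUM1315 and 247 to 3760 in MDA-MB-468 libraries. KRT17 was at 520 to 3733 and 168 to 836, and KRT14 at 1.79 to 32.1 and 2.03 to 21.8, in the same order. KRT8, an epithelial marker, was at 17.7 to 154 and 447 to 924.8. Of the leukocyte markers, CD14 had up to 510 reads in a SUM1315 and 119 in an MDA-MB-468 library, while CD3E, LYZ, MS4A1 and PTPRC had at most 11. PECAM1, an endothelial marker, was at adjusted read counts of 45 to 207.5 in SUM1315 libraries, and the other endothelial markers, CDH5 and VWF, had at most 2 reads there.

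Values were fitted by limma as log2 of (adjusted read count + 1), with the 27 libraries of a line in 1 fit. A gene was called where its p, adjusted by Benjamini-Hochberg across the genes tested, did not exceed 0.05. All 10 members passed the filter on low values in SUM1315 cells, and 8 passed in MDA-MB-468 cells, where CD40 and TNFRSF9 did not. In parental SUM1315 cells, 6 of 10 members were called after 2 µM CDDP, 3 higher and 3 lower, where 33.9% of all genes tested were called. After 4 µM CDDP 5 of 10 were called, 2 higher and 3 lower, against 43.9% of all genes. Their median log2 change was -0.04 and that of all genes was -0.003, so members moved in both directions. Olaparib alone changed 2 of 10, both lower, with 36% of all genes called. These shares lie on both sides of the background, and nothing particular to the members as a set is read from them.

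CDDP on top of olaparib, in SUM1315 parental cells, gave calls for 2 of 10 members at 2 µM against 3.76% of all genes, and 4 of 10 at 4 µM against 8.44%. Olaparib added to 4 µM CDDP changed 2 of 10, with 12.8% of all genes called. Between OlaR cells and olaparib-treated parental SUM1315 cells 8 of 10 members differed, 3 higher and 5 lower, against 47.2% of all genes, and their median log2 difference was -0.21, where that of all genes was -0.04. In OlaR SUM1315 cells no member was called after 2 µM CDDP, where 1.42% of all genes were, and 3 of 10 were called after 4 µM, where 16.7% were. In MDA-MB-468 cells, 1 of 8 members was called after 1 µM CDDP (20% of all genes), 2 of 8 after 2.5 µM (25.1%) and 1 of 8 after olaparib (21.5%). There, CDDP added to olaparib gave no call at 1 µM, with 5.26% of all genes called, and 2 of 8 at 2.5 µM, with 23.1%. Olaparib added to 2.5 µM CDDP gave none, with 11.9%. In OlaR against olaparib-treated parental MDA-MB-468 cells 5 of 8 members were called, all 5 higher, with 51.5% of all genes called and medians of 0.53 for the members and -0.03 for all genes. Within OlaR MDA-MB-468 cells none was called after 1 µM CDDP (4.76% of all genes) and 1 of 8 after 2.5 µM (18.7%). In the 4 comparisons with no call by limma, the members at an unadjusted p under 0.05 numbered 0 for each lower CDDP dose in OlaR cells and 1, TNFRSF12A, for each of the others. There edgeR and DESeq2 on recovered reads called TNFRSF12A for 1 µM CDDP added to olaparib (0.0434 and 0.0436) and no member in the other 3. Comparisons that use the same control libraries are not independent of each other.

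**Figure D1:**
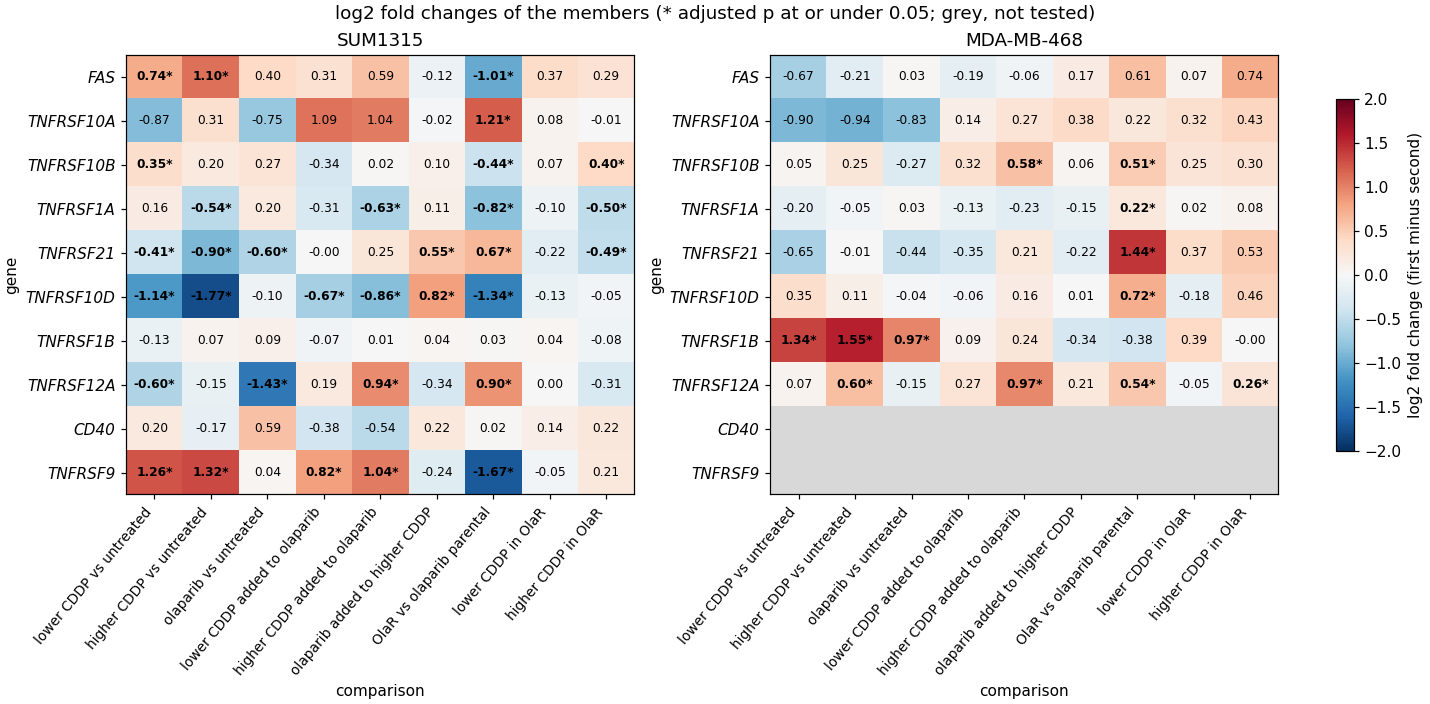
Log2 fold changes of the 10 members (rows) in 9 comparisons (columns) in SUM1315 (left) and MDA-MB-468 cells (right), with the number printed in each cell, red for higher and blue for lower, an asterisk for adjusted p at or under 0.05 and grey for genes that were not tested. In SUM1315 cells the largest changes after 4 µM CDDP are 1.32 for TNFRSF9 and -1.77 for TNFRSF10D, and the OlaR column of MDA-MB-468 cells has 5 asterisks, all on higher values.

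FAS, the receptor for FAS ligand, rose with CDDP in parental SUM1315 cells. Its gene lies on chromosome 10 at 88964050 to 89017059 (GRCh38.p14, plus strand, protein coding). FAS and TNFRSF9 were the only members called higher after 4 µM CDDP in these cells, and they moved together across the 27 SUM1315 libraries with a Pearson correlation of 0.856, a description over libraries that share conditions. Therefore the RefSeq promoter windows of both are shown, each around a transcription start and mostly upstream of it. Capitals mark matches, searched on both strands, to the NF-κB motif as GGGNNTTCC or as a longer form with an added T, and to the AP-1 motif as TGANTCA. No match to one motif overlapped a match to the other. SP1, TATA box and CCAAT box motifs were searched as well and are not marked. The FAS window, 1 of 3 listed for the gene, is at chr10:88990548-88990847 on the plus strand and that of TNFRSF9 is at chr1:7940790-7941089 on the minus strand.
FAS: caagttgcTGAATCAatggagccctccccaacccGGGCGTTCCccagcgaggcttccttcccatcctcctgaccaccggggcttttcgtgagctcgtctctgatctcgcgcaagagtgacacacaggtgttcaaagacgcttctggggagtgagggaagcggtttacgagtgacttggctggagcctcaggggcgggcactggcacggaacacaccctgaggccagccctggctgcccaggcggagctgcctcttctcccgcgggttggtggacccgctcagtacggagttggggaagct
TNFRSF9: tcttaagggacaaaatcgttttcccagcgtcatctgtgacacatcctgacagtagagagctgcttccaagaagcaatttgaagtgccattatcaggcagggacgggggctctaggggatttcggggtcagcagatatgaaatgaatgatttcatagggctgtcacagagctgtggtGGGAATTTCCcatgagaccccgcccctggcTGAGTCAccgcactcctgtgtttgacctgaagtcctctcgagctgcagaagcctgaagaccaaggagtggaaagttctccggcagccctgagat
The FAS window holds the shorter NF-κB motif from base 35 and AP-1 from base 9, counted from the 5′ end, while the other FAS windows hold neither. The TNFRSF9 window holds the longer NF-κB motif from base 177 and AP-1 from base 207. Of 35116 promoter windows of this length, 6.58% hold GGGNNTTCC, 1.91% hold the longer form, 7.71% hold TGANTCA and 0.558% hold AP-1 with either NF-κB form. Among the 10 members, 5 had an entry, and those of TNFRSF1A, TNFRSF1B and TNFRSF21 hold neither motif. The SP1 motif GGGCGG is in every FAS window and in those of TNFRSF9, TNFRSF1B and TNFRSF21, and in 45% of all windows. Neither printed window holds a TATA box or CCAAT box motif. A match of letters is a description and was not tested as a binding site.

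The untreated SUM1315 libraries had FAS at 112.8, 81.9 and 92.1 adjusted read counts. With 2 µM CDDP the values were 142.1, 127.8 and 220.5, and with 4 µM they were 202.4, 212.2 and 199.7, so every treated library lay above every untreated one. The change was 0.74 ± 0.23 (SE) on the log2 scale at 2 µM (1.67-fold, limma, adjusted p = 0.0128) and 1.10 ± 0.23 at 4 µM (2.15-fold, adjusted p = 0.000223). The call at 2 µM was lost without replicate 3 of 2 µM CDDP (adjusted p = 0.114) and without replicate 2 of untreated cells (0.0553), and the call at 4 µM was kept without each of its 6 libraries. In bulk RNA, a change in the share of cells with a transcript and a change in RNA per cell cannot be told apart.

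With olaparib present, FAS was at 125.2, 109.4 and 142.9 without CDDP and at 196.6, 248.3 and 137.8 with 4 µM CDDP, and the groups overlapped. This difference of 0.59 ± 0.23 was not called by limma (adjusted p = 0.11), but it passed without replicate 3 of the combination (0.0483) and in DESeq2 on recovered reads with all libraries (0.0481). It was not shown to differ from the response without olaparib (difference -0.51, 95% interval -1.18 to 0.15, adjusted p = 0.279). OlaR SUM1315 cells had the lowest FAS of the 9 conditions, with 74.4, 53.8 and 58.2, all below the olaparib-treated parental libraries (-1.01 ± 0.23, 2.02-fold lower, limma, adjusted p = 0.00053). In OlaR cells the values were 64.6, 87.0 and 90.8 with 2 µM CDDP and 91.1, 51.3 and 91.7 with 4 µM, with no call at either dose. The mean order across SUM1315 conditions ran from 204.8 with 4 µM CDDP to 62.1 in OlaR cells, and the libraries of every pair of neighbours in that order overlapped. In MDA-MB-468 cells FAS was at 4.94 to 37.6 adjusted read counts, from 7 to 30 reads a library, and no comparison within that line called it. Its highest values, 37.6, 36.9 and 25.1, were in OlaR cells with 2.5 µM CDDP, above the 15.8, 23 and 19.4 of OlaR cells alone, a difference of 0.74 ± 0.41 that was not called (adjusted p = 0.216).

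The receptors for TRAIL (TNFSF10) lie side by side on chromosome 8, TNFRSF10B at 23020133 to 23069031, TNFRSF10D at 23135588 to 23164027 and TNFRSF10A at 23190452 to 23225102 (GRCh38.p14, all protein coding). TNFRSF10A (DR4) and TNFRSF10B (DR5) carry death domains. TNFRSF10D is a decoy receptor with a truncated death domain. In SUM1315 cells the decoy had the largest called changes of the 3.

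TNFRSF10D fell with CDDP in parental SUM1315 cells. Its untreated libraries were at 436.2, 553.5 and 489.2 adjusted read counts, those with 2 µM CDDP at 246.6, 213 and 208.3, and those with 4 µM at 104, 153.7 and 183. The 3 sets did not overlap and were ordered by dose. The change was -1.14 ± 0.15 at 2 µM (2.21-fold lower, limma, adjusted p = 4.88e-07) and -1.77 ± 0.15 at 4 µM (3.41-fold lower, adjusted p = 3.07e-11), and both calls were kept without each library and under each of the 9 other settings without a fold limit. Olaparib alone left it at 421.1, 475.7 and 483.7, a difference of -0.10 (95% interval -0.41 to 0.22) that was not called (adjusted p = 0.665).

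Olaparib was accompanied by a smaller CDDP response of TNFRSF10D. The combination with 2 µM CDDP had 290.4, 294.8 and 282.6 and that with 4 µM had 246.3, 272.4 and 242, all below olaparib alone (4 µM: -0.86 ± 0.15, 1.81-fold lower, limma, adjusted p = 0.000315). The call at 2 µM (-0.67 ± 0.15, adjusted p = 0.0119) was lost without replicate 2 of olaparib (adjusted p = 0.06). At 4 µM CDDP the libraries with olaparib lay above those without it (0.82 ± 0.15, adjusted p = 0.000354), and the 4 µM responses with and without olaparib differed by 0.92 ± 0.22 (adjusted p = 0.00216). These comparisons share the libraries of the combination.

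OlaR SUM1315 cells already had a low TNFRSF10D, at 192.1, 163.5 and 186.4, all below every olaparib-treated parental library (-1.34 ± 0.15, 2.54-fold lower, limma, adjusted p = 9.08e-09). CDDP left it at 180.6, 173.3 and 142.1 at 2 µM and at 202.7, 157.4 and 166.2 at 4 µM, overlapping the OlaR control. The difference at 4 µM was -0.05, with a 95% interval of -0.36 to 0.26, and it differed from the response of olaparib-treated parental cells by 0.81 ± 0.22 (adjusted p = 0.0196). That last call was lost without replicate 1 of OlaR with 4 µM CDDP (adjusted p = 0.0632) and without replicate 2 of OlaR (0.0569). In MDA-MB-468 cells TNFRSF10D was higher in OlaR cells, at 48, 51.5 and 53.2 against 27.1, 38.3 and 27.1 in olaparib-treated parental cells (0.72 ± 0.25, adjusted p = 0.0135, and 0.0543 without replicate 1 or without replicate 3 of olaparib). Whether the OlaR difference itself differs between lines was not tested. No CDDP comparison called it there. TNFRSF10C, the neighbouring decoy gene with a sequence much like that of TNFRSF10D, had a mean of at most 1.07 in any condition, and how the counting treated reads matching both genes is not given in the sources used here.

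**Figure D2:**
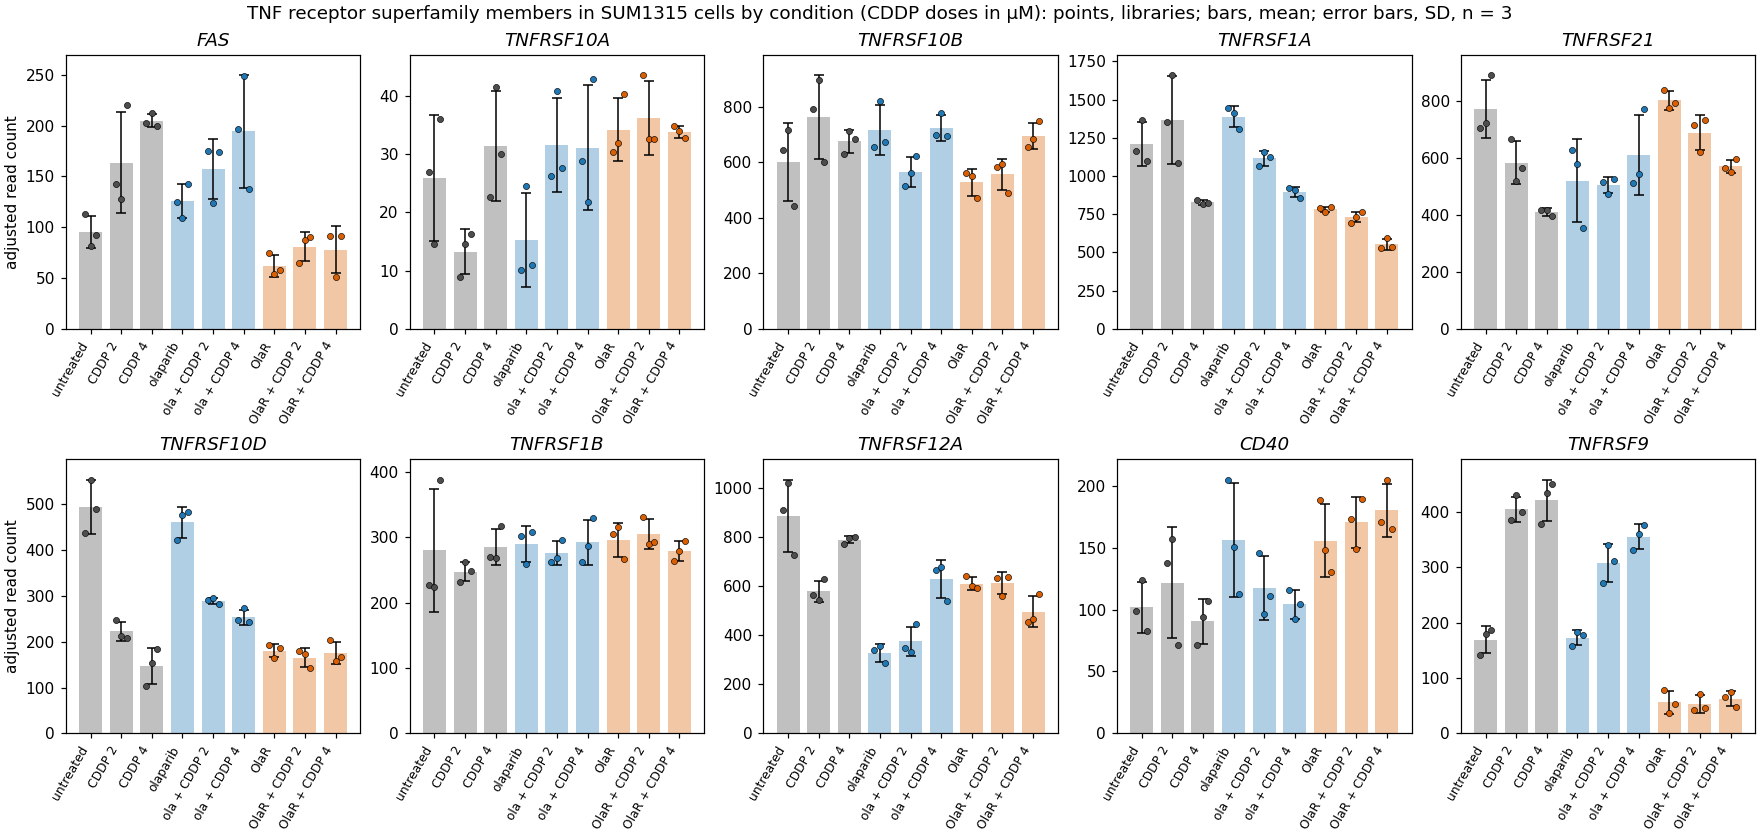
Adjusted read counts of the 10 members (panels) in the 9 SUM1315 conditions (x axis, CDDP doses in µM), with each library as a point, the mean as a bar from 0 and the SD as error bars (n = 3). Grey marks cells without olaparib, blue parental cells with olaparib and orange OlaR cells, and TNFRSF9 has means of 53 to 62.8 in the 3 OlaR conditions and of 307 to 420.4 in the 4 parental conditions with CDDP.

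TNFRSF10B stayed within a narrow range in SUM1315 cells, with condition means of 528.3 to 763.6 adjusted read counts. Untreated libraries had 643.6, 717.9 and 443, and the lowest was replicate 3, which stood apart. Its call after 2 µM CDDP (791.9, 897.9 and 600.8; 0.35 ± 0.14, limma, adjusted p = 0.0492) was lost without that library (adjusted p = 0.448), without replicate 1 or 2 of 2 µM CDDP (0.141 and 0.273) and under 6 of the 9 other settings. After 4 µM it was not called (0.20, 95% interval -0.09 to 0.48, adjusted p = 0.27). OlaR cells had 560.7, 552.2 and 472.1, below the 655.6, 820.7 and 673.5 of olaparib-treated parental cells (-0.44 ± 0.14, adjusted p = 0.0107), a call lost without replicate 3 of OlaR (0.0661) or replicate 2 of olaparib (0.0815). With 4 µM CDDP OlaR cells had 654.5, 685 and 747.6 (0.40 ± 0.14, adjusted p = 0.0465), a call lost without any 1 of the 6 libraries, at adjusted p of 0.0651 to 0.192, and in edgeR (0.0519), in DESeq2 (0.0552) and with no filter on low values (0.0889). Olaparib against untreated cells did not call TNFRSF10B (0.27, adjusted p = 0.128), except without replicate 2 of untreated cells (0.0264).

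In MDA-MB-468 cells TNFRSF10B was higher after 2.5 µM CDDP added to olaparib, at 129.2, 95.5 and 126.5 against 92, 64.4 and 78.1 (0.58 ± 0.17, 1.49-fold, limma, adjusted p = 0.00886). It was also higher in OlaR cells, at 103.1, 124.5 and 105.8 against the same olaparib libraries (0.51 ± 0.17, adjusted p = 0.00983). Both calls were lost without replicate 2 of olaparib, the lowest library (adjusted p = 0.0831 and 0.0867). The first was also lost without replicate 1 or 3 of the combination (0.0528 and 0.052), and the second without replicate 2 of OlaR (0.0598).

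TNFRSF10A had few reads, with 11 to 47 reads in a SUM1315 library and 5 to 38 in an MDA-MB-468 library, so its folds are imprecise. In SUM1315 cells it was called in OlaR against olaparib-treated parental cells, at 30.3, 31.8 and 40.3 against 10.1, 24.5 and 11 (1.21 ± 0.36, 2.32-fold, limma, adjusted p = 0.00579), and this call was kept without each library. The higher TNFRSF10A and the lower TNFRSF10B and TNFRSF10D were called in the same comparison. Untreated parental libraries had TNFRSF10A at 14.6 to 36.1 and TNFRSF10B at 443 to 717.9, and OlaR libraries overlapped both. For TNFRSF10D all OlaR libraries (163.5 to 192.1) lay below the untreated ones (436.2 to 553.5). OlaR against untreated cells was not tested. No other comparison within a line called TNFRSF10A with limma, but 3 passed with all libraries under another setting. After 2 µM CDDP in SUM1315 cells TNFRSF10A was lower in edgeR (adjusted p = 0.0456) and DESeq2 (0.0326) on recovered reads and with median-of-ratios scaling (0.0496). With 4 µM CDDP added to olaparib it was higher on log2 CPM of recovered reads (0.0448), and after 2.5 µM CDDP in MDA-MB-468 cells it was lower in edgeR (0.0423) and DESeq2 (0.039). Several comparisons also passed in limma without 1 library, namely 2 µM CDDP without its replicate 3 (adjusted p = 0.0473) or without replicate 2 of untreated cells (0.0137), olaparib without its replicate 2 (0.0222) or without replicate 2 of untreated cells (0.0246), and 2 and 4 µM CDDP added to olaparib without replicate 2 of olaparib (0.0473 and 0.0232). In MDA-MB-468 cells, untreated libraries had 8.45, 28.3 and 20.6, and without replicate 1, the lowest, TNFRSF10A was lower after 1 µM (0.0411) and 2.5 µM CDDP (0.029).

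TNFRSF1A, the ubiquitous TNF receptor on chromosome 12 at 6328771 to 6342076 (minus strand, protein coding), fell with 4 µM CDDP in all 3 settings of SUM1315 cells. Untreated libraries had 1163, 1368 and 1095 adjusted read counts, and those with 4 µM CDDP had 843.4, 816.4 and 820.5 (-0.54 ± 0.10, 1.45-fold lower, limma, adjusted p = 9.1e-05). Added to olaparib, 4 µM CDDP brought it from 1442, 1410 and 1309 to 920.6, 909.7 and 855.2 (-0.63 ± 0.10, adjusted p = 0.000157). OlaR cells had 790.7, 762.5 and 795.1, below olaparib-treated parental cells (-0.82 ± 0.10, 1.77-fold lower, adjusted p = 1e-07), and 527.6, 596.7 and 536.7 with 4 µM CDDP (-0.50 ± 0.10, adjusted p = 0.0011). In each of these comparisons the groups did not overlap and the call was kept without each library. The 3 responses to 4 µM CDDP were not shown to differ, with a difference of 0.13 (95% interval -0.17 to 0.43) between OlaR and olaparib-treated parental cells. After 2 µM CDDP it was not called in any setting, and the untreated comparison at 2 µM (1356, 1659 and 1086 with CDDP) reached the threshold without replicate 3 of 2 µM CDDP (0.32, adjusted p = 0.015). Olaparib alone reached it without replicate 2 of untreated cells (0.30, adjusted p = 0.041).

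In MDA-MB-468 cells TNFRSF1A had condition means of 405.5 to 582.1. OlaR cells had 535.6, 513.6 and 609 against 439.2, 502.7 and 484 in olaparib-treated parental cells, a difference of 0.22 ± 0.09 that was called (limma, adjusted p = 0.0445) and was lost without replicate 1 or 3 of either group, at adjusted p of 0.0554 to 0.248. CDDP at 2.5 µM added to olaparib gave -0.23 ± 0.09 and no call (adjusted p = 0.0602), except without replicate 1 of olaparib (0.0383) or replicate 3 of the combination (0.025).

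TNFRSF21 (DR6), a death domain receptor without an established TNF family ligand, is on chromosome 6 at 47231532 to 47309905 (minus strand, protein coding). In parental SUM1315 cells it fell with either drug. Untreated libraries had 705, 724.5 and 891.4, those with 4 µM CDDP had 418.1, 418.8 and 395.9 (-0.90 ± 0.15, 1.87-fold lower, limma, adjusted p = 8.58e-06) and those with olaparib had 628.4, 580.1 and 354.7 (-0.60 ± 0.15, adjusted p = 0.00173). The olaparib call was lost when only the groups compared were fitted (adjusted p = 0.0578). After 2 µM CDDP it had 667.5, 519.5 and 564.8 (-0.41 ± 0.15, adjusted p = 0.0344), a call lost without replicate 3 of untreated cells (0.176) or replicate 2 or 3 of 2 µM CDDP (0.145 and 0.0746), and also with no filter on low values or with only the groups compared.

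Olaparib was accompanied by a different CDDP response of TNFRSF21. The combination with 4 µM CDDP had 513.4, 545.9 and 771.9, above 4 µM CDDP alone (0.55 ± 0.15, limma, adjusted p = 0.0125, lost without replicate 3 of the combination at 0.15 and without replicate 3 of 4 µM CDDP at 0.0508). CDDP added to olaparib gave 0.25 ± 0.15 (adjusted p = 0.346), and the responses to 4 µM CDDP with and without olaparib differed by 1.15 ± 0.21 (adjusted p = 0.000137), which was kept without each library. OlaR cells had 839.7, 774.9 and 794.1, above olaparib-treated parental cells (0.67 ± 0.15, adjusted p = 0.000438). With 4 µM CDDP they had 567, 552.1 and 596.3, all below the OlaR control (-0.49 ± 0.15, adjusted p = 0.0217), a call lost without replicate 1 or 3 of OlaR or replicate 1 or 2 of the CDDP-treated OlaR cells, at adjusted p of 0.0523 to 0.077. TNFRSF21 in OlaR MDA-MB-468 cells was at 93.9, 73.1 and 86 against 34.2, 30.2 and 27.1 in olaparib-treated parental cells (1.44 ± 0.28, 2.7-fold, adjusted p = 1.71e-05), the largest called difference of a member in that line's OlaR comparison. There it had 132.1, 123.7 and 109.2 with 2.5 µM CDDP, all above the OlaR control, a difference of 0.53 ± 0.28 that was not called (adjusted p = 0.191), except with only the groups compared (0.0318). In both lines TNFRSF21 was therefore higher in OlaR than in olaparib-treated parental cells. Against untreated parental libraries, OlaR libraries overlapped them in SUM1315 cells (774.9 to 839.7 against 705 to 891.4). In MDA-MB-468 cells they lay above them (73.1 to 93.9 against 32.3 to 53.2). OlaR against untreated cells was not tested. Parental MDA-MB-468 cells treated with 1 µM CDDP had it at 22.7, 41.5 and 18.6 against 32.3, 53.2 and 41.6 in untreated cells (-0.65 ± 0.28, adjusted p = 0.0893, and 0.0151 without replicate 2 of 1 µM CDDP).

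**Figure D3:**
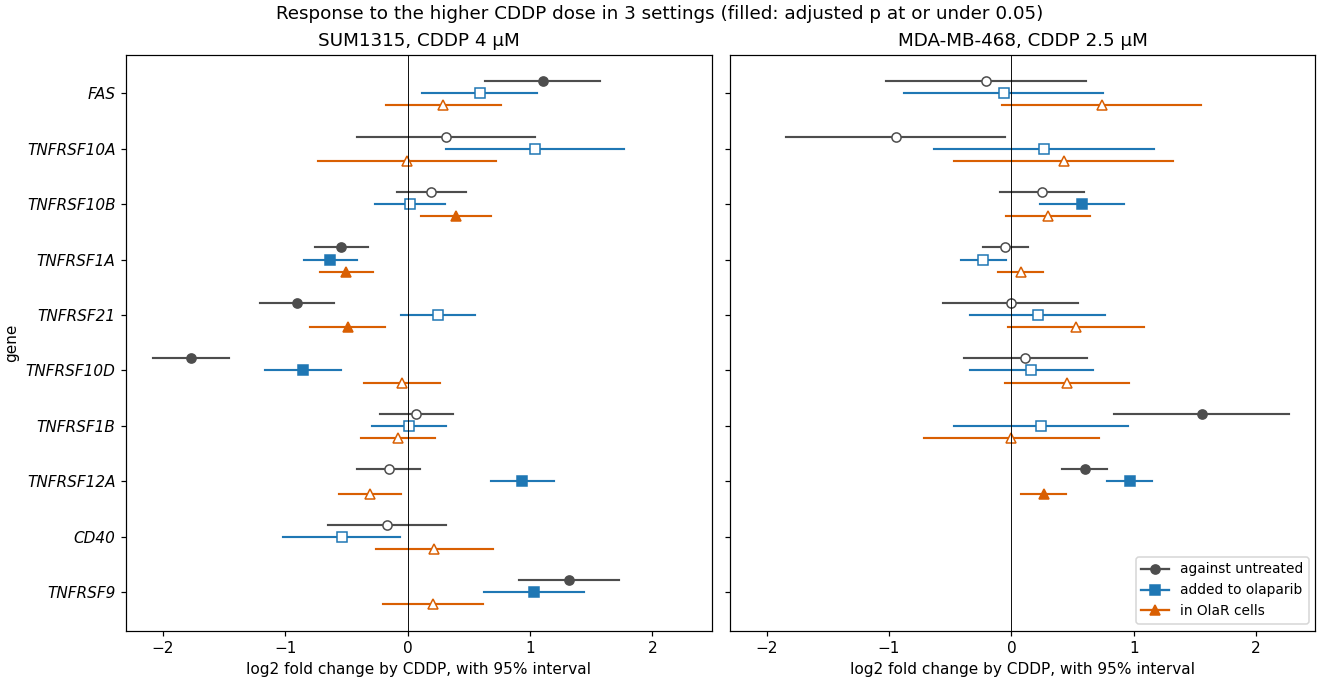
Log2 fold change by the higher CDDP dose (x axis, with the 95% interval as a line) for each member (y axis) in untreated parental, olaparib-treated parental and OlaR cells of SUM1315 (left, 4 µM) and MDA-MB-468 (right, 2.5 µM), with filled symbols at adjusted p at or under 0.05. In SUM1315 cells TNFRSF1A is between -0.63 and -0.50 in all 3 settings, while TNFRSF10D goes from -1.77 to -0.86 to -0.05.

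TNFRSF12A (Fn14), the receptor for TWEAK (TNFSF12), has no death domain and is a known growth factor-inducible gene. It is on chromosome 16 at 3020368 to 3022383 (protein coding). It had the largest olaparib change of the members in SUM1315 cells. Untreated libraries had 910.3, 1019 and 727.4 adjusted read counts and olaparib-treated ones 339.2, 355.8 and 284.8, with no overlap (-1.43 ± 0.12, 2.69-fold lower, limma, adjusted p = 8.35e-11). CDDP at 2 µM gave 564, 541.5 and 627.3 (-0.60 ± 0.12, adjusted p = 0.000292) and at 4 µM 771.6, 793.6 and 798.5, which overlapped the untreated libraries and was not called (-0.15, 95% interval -0.41 to 0.10, adjusted p = 0.33). The change was thus not ordered by dose.

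Added to olaparib, 4 µM CDDP raised TNFRSF12A to 665.4, 678.9 and 537.9 (0.94 ± 0.12, 1.92-fold, limma, adjusted p = 4.56e-06), while 2 µM gave 346.2, 333 and 443.7 and no call (0.19, adjusted p = 0.433). The responses to 4 µM CDDP with and without olaparib differed by 1.09 ± 0.18 (adjusted p = 2.56e-05). OlaR SUM1315 cells had 640.4, 599.1 and 590.2, above every olaparib-treated parental library (0.90 ± 0.12, adjusted p = 4.02e-07). There 4 µM CDDP gave 452.1, 465.5 and 567.8, all below the OlaR control and not called (-0.31 ± 0.12, adjusted p = 0.0898), except without replicate 3 of the CDDP-treated OlaR cells (0.0422). The 4 µM CDDP response of OlaR cells was below that of olaparib-treated parental cells by -1.25 ± 0.18 (adjusted p = 3.13e-05), a call kept without each of the 12 libraries.

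TNFRSF12A was also the member with the most calls in MDA-MB-468 cells. Untreated libraries had 410.6, 434.3 and 487, those with 2.5 µM CDDP 607.2, 729.5 and 682.3 (0.60 ± 0.09, 1.51-fold, limma, adjusted p = 1.26e-06). Added to olaparib, 2.5 µM CDDP brought it from 401, 375.1 and 417.4 to 810.2, 740.9 and 782.6 (0.97 ± 0.09, 1.95-fold, adjusted p = 3.95e-12). Olaparib alone gave -0.16 ± 0.09 and no call (adjusted p = 0.249), and 1 µM CDDP added to it gave 0.27 ± 0.09 and no call in limma (0.0747). That comparison passed without replicate 2 of the combination (0.0334), in edgeR (0.0434), in DESeq2 (0.0436) and on log2 CPM of recovered reads (0.0345). OlaR cells had 604.3, 597.3 and 540.2, above olaparib-treated parental cells (0.54 ± 0.09, adjusted p = 1.72e-06). CDDP at 2.5 µM in OlaR cells gave 622.5, 779.4 and 697 (0.26 ± 0.09, adjusted p = 0.0355), a call lost without replicate 2 or 3 of either group, at adjusted p of 0.0545 to 0.242. The OlaR response was smaller than that of olaparib-treated parental cells by -0.70 ± 0.13 (adjusted p = 8.82e-05). In both lines, therefore, TNFRSF12A was higher in OlaR than in olaparib-treated parental cells, rose when the higher CDDP dose was added to olaparib, and had a lower CDDP response in OlaR cells. Against untreated parental libraries the lines went opposite ways. OlaR libraries lay below them in SUM1315 cells (590.2 to 640.4 against 727.4 to 1019) and above them in MDA-MB-468 cells (540.2 to 604.3 against 410.6 to 487). OlaR against untreated cells was not tested.

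TNFRSF9 (4-1BB), a costimulatory receptor best known on activated T cells, is on chromosome 1 at 7915871 to 7940839 (minus strand, protein coding). It had the widest range of the members in SUM1315 cells, with a mean of 420.4 adjusted read counts at the highest and 53 at the lowest, a ratio of 7.93. Untreated libraries had 140.6, 180 and 186.1, those with 2 µM CDDP 385, 429.4 and 399.4 and those with 4 µM 378.2, 433.5 and 449.5. Every CDDP library lay above every untreated one, and the doses overlapped each other. The changes were 1.26 ± 0.20 at 2 µM (2.4-fold, limma, adjusted p = 8.42e-06) and 1.32 ± 0.20 at 4 µM (2.49-fold, adjusted p = 2.53e-06). Olaparib alone gave 157.7, 182.6 and 177.9 (0.04, 95% interval -0.37 to 0.45, adjusted p = 0.899).

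Added to olaparib, CDDP raised TNFRSF9 to 270.6, 339.9 and 310.5 at 2 µM (0.82 ± 0.20, limma, adjusted p = 0.0185) and to 330.7, 358.9 and 375.7 at 4 µM (1.04 ± 0.20, 2.05-fold, adjusted p = 0.000936). The first of these calls was lost without replicate 2 of the combination (0.0938) or without replicate 1 or 2 of olaparib (0.091 and 0.0522). OlaR cells had 77.4, 36.7 and 53.3, all below olaparib-treated parental cells (-1.67 ± 0.20, 3.19-fold lower, adjusted p = 2.97e-08). CDDP in OlaR cells gave 41.9, 71.7 and 45.5 at 2 µM and 65.7, 74.9 and 47.9 at 4 µM, overlapping the OlaR control, and neither was called (4 µM: 0.21, 95% interval -0.20 to 0.62, adjusted p = 0.539). The 4 µM response of OlaR cells was below that of olaparib-treated parental cells by -0.83 ± 0.28, which did not pass (adjusted p = 0.0741) but did in DESeq2 on recovered reads (0.0331) and without replicate 2 of OlaR (0.0166).

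Of the 6 leukocyte markers, CD14 made up nearly all of the summed level in SUM1315 cells, and the sum was 406 to 471 in untreated, 122 to 166 with 2 µM CDDP, 118 to 166 with 4 µM CDDP and 21.6 to 30.2 in OlaR libraries. Without CD14 the other 5 markers summed to 6.25 to 12.8 in untreated cells and to at most 6.97 with 2 µM and 5.1 with 4 µM CDDP. These sums rest on few reads, and whether the level of TNFRSF9 is related to these markers was not tested. In MDA-MB-468 cells TNFRSF9 reached at most 7 reads in a library, no library of the 9 OlaR ones had a read, and no fold is given.

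CD40, a receptor of antigen-presenting cells that many carcinoma lines also express, had a mean of 90.6 to 180.3 in SUM1315 conditions and was not called in any comparison. Olaparib-treated libraries had 204.3, 150.7 and 112.9 against 98.8, 124 and 82.9 in untreated ones, a difference of 0.59 ± 0.24 that just missed the threshold (limma, adjusted p = 0.0505) and passed in edgeR (0.03) and DESeq2 (0.0314) on recovered reads. It also passed without replicate 3 of olaparib (0.0152) or replicate 2 of untreated cells (0.0258). In MDA-MB-468 cells CD40 had at most 1 read in a library. The gene is on chromosome 20 at 46118314 to 46129858.

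TNFRSF1B, the TNF receptor of mainly immune cells without a death domain (chromosome 1 at 12166991 to 12209220, plus strand), was the flattest member in SUM1315 cells and had the largest called CDDP fold in MDA-MB-468 cells. Its SUM1315 condition means were 247.4 to 304.6, a ratio of 1.23, and no comparison was called. The untreated libraries had 226.7, 224.8 and 388.4, the last being replicate 3, and without it 4 µM CDDP (0.33, adjusted p = 0.0418) and olaparib (0.35, adjusted p = 0.0391) reached the threshold. Untreated MDA-MB-468 libraries had 5.69, 10.8 and 12.8, from 9 to 17 reads, those with 1 µM CDDP 27.1, 21.1 and 27.8, and those with 2.5 µM 24.9, 27.1 and 36.9. All CDDP libraries lay above all untreated ones (1 µM: 1.34 ± 0.36, limma, adjusted p = 0.00416, and 2.5 µM: 1.55 ± 0.36, 2.94-fold, adjusted p = 0.000696). The call at 1 µM was lost without replicate 1 of untreated cells (0.0555). Olaparib gave 24.5, 18.1 and 15.8 (0.97 ± 0.36, adjusted p = 0.0426), lost without replicate 1 or 2 of either group, at adjusted p of 0.0537 to 0.267. In OlaR MDA-MB-468 cells its condition means were 14.6, 19.4 and 14.9, with no call. The 2.5 µM CDDP response with olaparib was below that without it by -1.31 ± 0.50, which did not pass in limma (0.0571) but did in edgeR (0.0388) and DESeq2 (0.0341) on recovered reads and in limma without replicate 2 of the combination (0.0453), replicate 3 of olaparib (0.0494) or replicate 3 of untreated cells (0.0363). These are few reads, and the folds are imprecise.

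**Figure D4:**
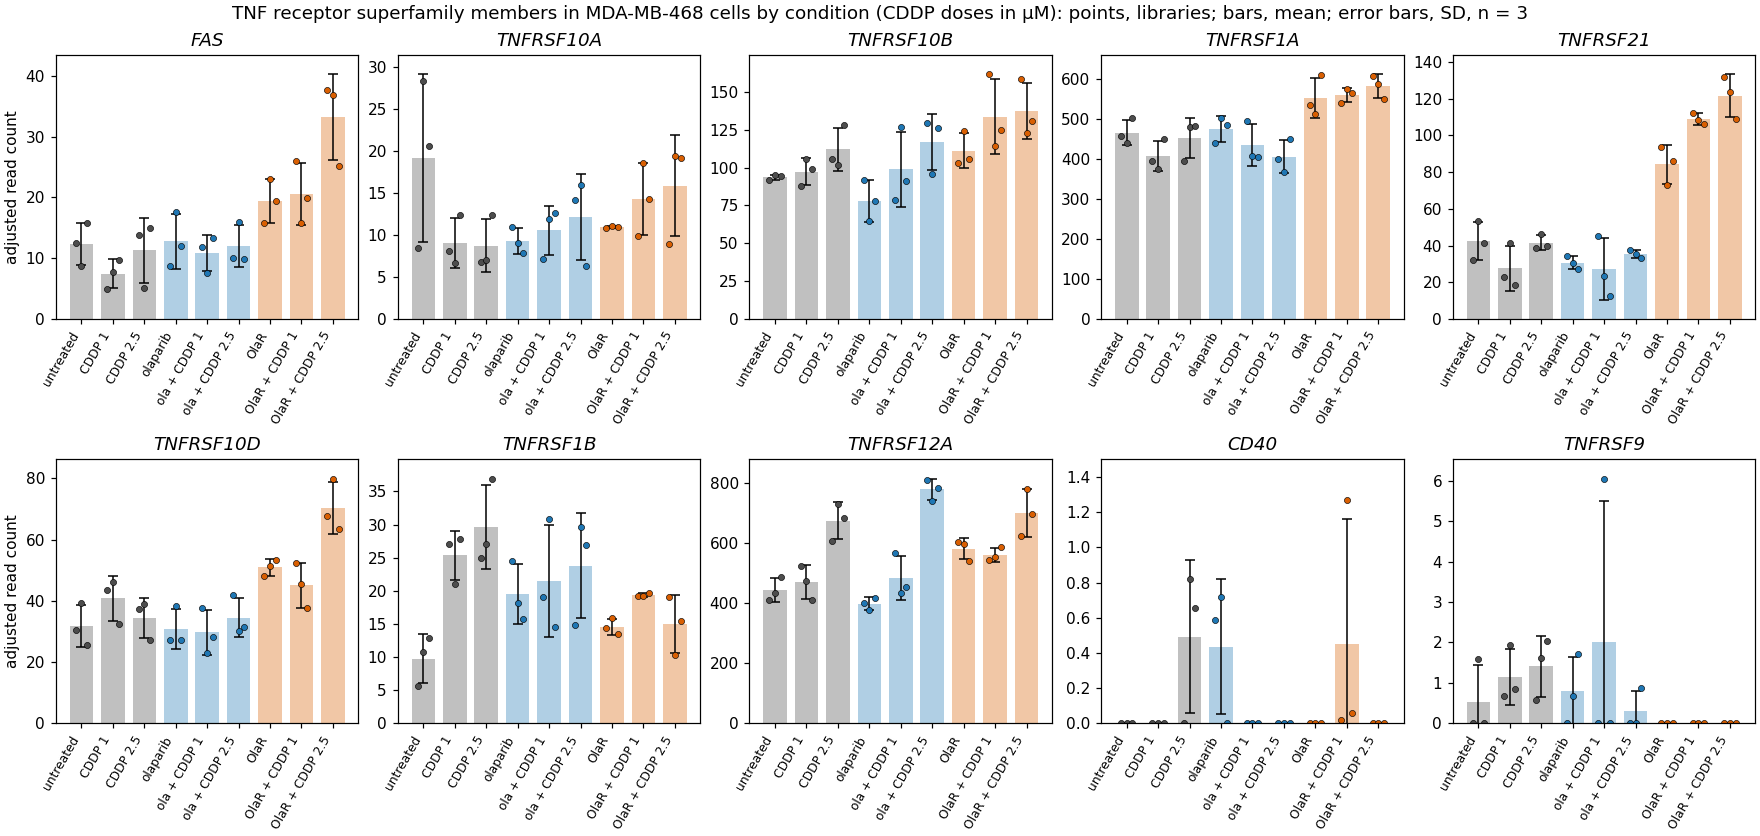
Adjusted read counts of the 10 members (panels) in the 9 MDA-MB-468 conditions (x axis, CDDP doses in µM), with libraries as points, means as bars from 0 and the SD as error bars (n = 3). Grey marks cells without olaparib, blue parental cells with olaparib and orange OlaR cells, and TNFRSF21 is at 73.1 or more in every OlaR library and at 53.2 or less in every parental one.

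Whether CDDP acted differently by setting was asked across all genes as well. In SUM1315 cells the 4 µM responses of OlaR and olaparib-treated parental cells differed for 3 of 10 members, where 6.4% of all genes differed, and those with and without olaparib differed for 3 of 10, where 21.5% did. TNFRSF10D, TNFRSF12A and TNFRSF21 were the members called both times, and the call of TNFRSF21 in the first was lost in 7 of 12 fits that left out a library, at adjusted p of 0.051 to 0.121. Without replicate 3 of olaparib that difference of TNFRSF21 was -0.48 (limma, adjusted p = 0.113), where it was -0.74 with all libraries. In MDA-MB-468 cells TNFRSF12A was the 1 of 8 members in either comparison, with 15% and 20.2% of all genes called. Its second difference, 0.37 ± 0.13 (adjusted p = 0.037), was lost in 7 of 12 such fits, at 0.0526 to 0.134. Both comparisons use the libraries of olaparib with CDDP.

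The lines were compared through the change each showed against its own control, since line and batch may coincide. Sequencing was in batches of 27 libraries, and it is not stated which shared a batch. A batch effect therefore cannot be told apart from a difference between lines, or between OlaR and parental cells. CDDP doses also differed between lines (4 and 2.5 µM). The higher CDDP dose against untreated cells gave different responses for 6 of 10 members, with 27.5% of 14460 genes called. FAS responded more strongly in SUM1315 by 1.31 ± 0.44 (limma, adjusted p = 0.0201), lost without replicate 2 of 2.5 µM CDDP (0.131) or replicate 3 of untreated MDA-MB-468 cells (0.0667). TNFRSF10D was lower by -1.89 ± 0.26 (adjusted p = 2.8e-07), TNFRSF1B by -1.48 ± 0.34 (0.000696), TNFRSF12A by -0.75 ± 0.16 (0.000416) and TNFRSF1A by -0.49 ± 0.14 (0.0077) in SUM1315 than in MDA-MB-468 cells. TNFRSF21 was lower by -0.90 ± 0.34 (adjusted p = 0.0415), and 8 of the 12 fits that left out a library lost this call, at adjusted p of 0.054 to 0.136. In OlaR cells 2 of 10 members differed between lines, with 5.44% of all genes called. TNFRSF10A was not called by limma in parental cells (1.26 ± 0.55, adjusted p = 0.0791), but it passed in edgeR (0.0433), in DESeq2 (0.041) and on log2 CPM of recovered reads (0.0446). It also passed in limma without replicate 3 of untreated SUM1315 (0.0437), replicate 3 of 2.5 µM CDDP (0.0474) or replicate 1 of untreated MDA-MB-468 cells (0.0156). Those called in OlaR cells were TNFRSF12A (-0.57 ± 0.16, adjusted p = 0.0298, lost in 6 of 12 fits that left out a library, at 0.0562 to 0.0968) and TNFRSF1A (-0.58 ± 0.14, adjusted p = 0.0113). TNFRSF21 in OlaR cells differed by -1.02 ± 0.34 and was not called by limma (adjusted p = 0.0652). It passed in DESeq2 (0.00506), in edgeR (0.0224), with only the groups compared (0.00503) and with a pseudocount of 5 (0.0381). TNFRSF9 and CD40 enter these counts but rest on MDA-MB-468 libraries near 0, and no value is given for them.

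The other genes of the pathway were followed in the higher CDDP dose, for which 43.9% of all genes were called in parental and 16.7% in OlaR SUM1315 cells, and 25.1% and 18.7% in MDA-MB-468 cells. The median change of all genes was -0.003, 0.001, 0.009 and -0.004 in these comparisons. Counts are read against those shares, and nothing particular to a list is read from them. Of 19 further receptors of the family, 7 passed the filter in SUM1315 cells and 5 were called after 4 µM CDDP in parental cells. RELT and TNFRSF11A (RANK) were higher and LTBR, TNFRSF14 and TNFRSF25 lower, and TNFRSF11A went from 14.1 ± 2 to 44.6 ± 6.1 (SD, n = 3, 1.60 ± 0.29, limma, adjusted p = 3.26e-05). In OlaR SUM1315 cells 1 of 7 was called, LTBR, the lymphotoxin receptor, at 639.7 ± 6.1 before and 486.5 ± 102 after CDDP (adjusted p = 0.0207). In MDA-MB-468 cells 2 of 6 were called after 2.5 µM CDDP in parental cells, RELT higher (100.8 ± 12 to 156.3 ± 8.9, adjusted p = 0.000643) and LTBR lower, and 2 of 6 in OlaR cells, LTBR and RELT, both higher. LTBR there went from 394.9 ± 47.4 to 519 ± 51.5 (adjusted p = 0.00137). The median log2 change of the receptors tested was 0.007 in parental and -0.24 in OlaR SUM1315 cells, and 0.21 and 0.25 in MDA-MB-468 cells.

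Of 18 ligands, 10 passed the filter for SUM1315, and for MDA-MB-468 only 3 did. FASLG, the ligand of FAS, was listed at 0 in every condition of both lines. In parental SUM1315 cells CDDP raised CD70, TNF and TNFSF15 and lowered EDA and TNFSF10, 5 of 10 where 43.9% of all genes were called, and EDA, the ectodysplasin gene, went from 64.3 ± 16.4 to 23.1 ± 1.6 (adjusted p = 0.000125). TNF had a mean of at most 14.3 in any SUM1315 condition. In OlaR SUM1315 cells 2 of 10 were called, where 16.7% of all genes were. These were CD70 and EDA, both lower, with EDA going from 85.4 ± 26.2 to 23.5 ± 7.6 (limma, adjusted p = 2.17e-05). All 3 ligands tested in parental MDA-MB-468 cells were called, where 25.1% of all genes were, TNFSF9, the ligand of TNFRSF9, higher and TNFSF10 (TRAIL) and TNFSF15 lower. TNFSF10 went from 406.2 ± 12.2 to 297.8 ± 14.7 (-0.45 ± 0.10, limma, adjusted p = 0.000727). In OlaR MDA-MB-468 cells TNFSF9 went from 16.6 ± 2.8 to 46.1 ± 4.5 (1.43 ± 0.31, limma, adjusted p = 0.000498) and TNFSF10 was lower, 2 of 3 where 18.7% of all genes were called. The median log2 change of the ligands tested was 0.35 in parental and 0.09 in OlaR SUM1315 cells, and -0.45 and 0.73 in MDA-MB-468 cells.

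Of 23 genes of proximal signalling, all 23 were tested in SUM1315 cells and 14 were called after 4 µM CDDP, 9 higher and 5 lower, where 43.9% of all genes were called. The higher ones ran from 0.33 for BIRC2 to 2.06 for TRAF1, an adaptor that the study also names from these libraries, and included BIRC3, CASP8, CASP10, FADD and TRAF2. The lower ones were MAP3K5 (-0.34), TRAF3 (-0.57), CFLAR (-0.64), MAP3K7 (-0.69) and RBCK1 (-0.74). Whether these changes differ between parental and OlaR cells was not tested. In OlaR SUM1315 cells 5 of 23 were called, where 16.7% of all genes were, BIRC2, BIRC3, CYLD and TRAF1 higher and MAP3K5 lower. BIRC3, an inhibitor of apoptosis protein that the study names from these libraries, had the smallest p of the list in both SUM1315 comparisons, going from 572.7 ± 59.3 to 1588 ± 128 in parental (adjusted p = 2.47e-11) and from 276.6 ± 58.5 to 569.1 ± 92.7 in OlaR cells (2.74e-07). In MDA-MB-468 cells 5 of 22 were called in parental cells, 4 higher, BIRC2 and TRAF2 among them, and TAB2 lower, and 3 of 22 in OlaR cells, where 18.7% of all genes were called, RNF31 higher and MAP3K5 and TAB2 lower. MAP3K5 (ASK1) went from 160.7 ± 33.1 to 85.4 ± 2.5 in OlaR cells (adjusted p = 9.94e-06). The median log2 change of the signalling genes tested was 0.21 in parental and 0.11 in OlaR SUM1315 cells, and 0.10 and -0.03 in MDA-MB-468 cells.

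Genes whose log2 values followed a member most closely across the 27 SUM1315 libraries were found for 5 members with enough reads and range. They were DDX58 (RIG-I) and AIM2, both sensors of nucleic acids, for TNFRSF9 (Pearson r = 0.976 and 0.967), and CDC25B and ERGIC1 for TNFRSF1A (0.96 and 0.958). For FAS they were UBE2L6 and NR1D1 (0.922 and 0.901), for TNFRSF10D CDK19 and TFPI (0.9 and 0.898) and for TNFRSF12A UBR4 and NKX2-5 (0.847 and 0.84). The libraries share their conditions, and these values are descriptions. Among the members themselves, FAS and TNFRSF9 had the highest correlation in SUM1315 cells and TNFRSF10A and TNFRSF1A the lowest (-0.686). In MDA-MB-468 cells the highest was between TNFRSF1A and TNFRSF21 (0.781), and FAS with TNFRSF9, few in reads there, had -0.571.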

How the data were processed

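The 54 libraries were made with a QuantSeq 3′ mRNA kit. Per the labels, the authors processed reads with CASAVA 1.8.2, FastQC, STAR, HTSeq and edgeR on hg38. The members and gene lists were chosen with earlier results of these data known. The signal in the authors' deposited table is the read count of each gene adjusted by edgeR to a library size of 5585170 at a dispersion of 0.01039. Inverting that adjustment gave whole reads, from which 100% of 1483380 values were given back, with a largest relative difference of 2.6e-09. The authors' own fold changes and p-values were not used.

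The main test was limma 3.58.1 (R 4.3.3) on log2(value + 1) with the prior variance following mean level, for genes at 10 or more in at least 3 libraries, over the 27 libraries of a line (13133 genes in SUM1315, 13012 in MDA-MB-468) or all 54 (14460), with Benjamini-Hochberg adjustment.  On the recovered reads edgeR 4.0.16 and DESeq2 1.42.0 were alternatives, beside other pseudocounts, filters, scalings and fits, and each library was left out in turn. The code was tested on simulated data, with known changes. Genes named were the 10 members, the gene with the smallest p of each pathway list in the higher CDDP comparisons with the called genes of each list, and the 2 genes most correlated with a member. Some list genes that this rule names are not reported here. TNF, FASLG, TNFRSF10C, TRAF1, BIRC2 and the lower signalling genes of SUM1315 were given values after these were seen. Gene positions and promoters are from RefSeq (GRCh38.p14). Libraries of the same replicate number were not treated as paired.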

Additional observations from a re-analysis of the deposited data

Results flagged for a closer look

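Tests of a difference between 2 responses passed for the following members (limma, adjusted p at or under 0.05, n = 3 libraries a condition). In SUM1315 cells the response to 4 µM CDDP in OlaR cells, less that of olaparib-treated parental cells, was 0.81 for TNFRSF10D, -1.25 for TNFRSF12A and -0.74 for TNFRSF21. The response to 4 µM CDDP with olaparib, less that without it, was 0.92 for TNFRSF10D, 1.09 for TNFRSF12A and 1.15 for TNFRSF21. In MDA-MB-468 cells TNFRSF12A had -0.70 in the first of these differences at 2.5 µM CDDP and 0.37 in the second, and the latter call was lost in 7 of 12 fits that left out a library, at adjusted p of 0.0526 to 0.134.

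Between lines, SUM1315 minus MDA-MB-468, the response of parental cells to the higher CDDP dose differed by 1.31 for FAS, -1.89 for TNFRSF10D, -0.75 for TNFRSF12A, -0.49 for TNFRSF1A, -1.48 for TNFRSF1B and -0.90 for TNFRSF21. In OlaR cells it differed by -0.57 for TNFRSF12A and -0.58 for TNFRSF1A. Doses differed between the lines. Which libraries shared a sequencing batch is not stated, so a batch effect cannot be told apart from a difference between lines, or between OlaR and parental cells. The call of TNFRSF21 in the difference between OlaR and olaparib-treated SUM1315 cells was lost in 7 of 12 fits that left out a library, at adjusted p of 0.051 to 0.121.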

How the results depend on the processing

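Of 60 calls of a member in a comparison, 37 were kept in all 9 other settings without a fold limit and without each library, and none changed direction. A fold limit of 2 gave the following counts of members, each with the share of all genes called at that limit. In SUM1315 cells it left 2 after 2 µM CDDP (8.79%), 3 after 4 µM (15.4%) and 1 after olaparib (9.35%). CDDP added to olaparib kept 0 at 2 µM (0.495%) and 1 at 4 µM (1.32%). Olaparib added to 4 µM CDDP kept 0 (2.56%), OlaR against olaparib 4 (16.6%) and 4 µM CDDP in OlaR 0 (3.82%). The difference of OlaR and olaparib responses kept 1 (2.55%), and that with and without olaparib 2 (8.07%). In MDA-MB-468 cells it left 1 after 2.5 µM CDDP (2.59%), 0 after olaparib (1.74%) and 0 after 2.5 µM CDDP added to olaparib (1.91%). OlaR against olaparib kept 1 (14.3%) and 2.5 µM CDDP in OlaR 0 (2.39%). The differences of responses kept 0, for OlaR and olaparib (2.12%) and with and without olaparib (2.07%). Between lines 3 were left in parental (11.4%) and 0 in OlaR cells (1.74%). Fitting only the groups compared gave 1 for olaparib in SUM1315 cells (27% of all genes). In MDA-MB-468 cells it gave 0 for olaparib (16.2%) and 2 for 2.5 µM CDDP in OlaR (16.9%). Without a filter, 0 members were called in MDA-MB-468 cells for olaparib (11.2% of all genes) and 2.5 µM CDDP in OlaR (10%). The difference of responses with and without olaparib also gave 0 there (10.4%). Log2 CPM of recovered reads gave 0 for olaparib in MDA-MB-468 cells (21.1% of all genes). There it gave 1 for 1 µM CDDP added to olaparib (5.07%) and 1 for olaparib added to 2.5 µM CDDP (12.8%). In OlaR cells between lines it gave 1 (5.35%). In MDA-MB-468 cells edgeR and DESeq2 each gave 1 for 1 µM CDDP added to olaparib (6.93% and 7.53% of all genes). Each gave 2 for the difference of responses with and without olaparib (23.8% and 23.5%). The cause of these changes was not tested, and fits that left libraries out also had smaller samples.

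In MDA-MB-468 cells, leaving out 1 library in turn gave 1 to 2 for 1 µM CDDP and 2 to 3 for 2.5 µM. For CDDP added to olaparib it gave 0 to 1 at 1 µM and 1 to 3 at 2.5 µM. There were 0 to 1 for olaparib and 0 to 2 for the difference with and without olaparib. OlaR against olaparib gave 3 to 4, and 2.5 µM CDDP in OlaR gave 0 to 1. In SUM1315 cells leaving out 1 library gave 4 to 6 for 2 µM CDDP and 5 to 6 for 4 µM. For CDDP added to olaparib it gave 1 to 2 at 2 µM and 4 to 5 at 4 µM. OlaR against olaparib gave 7 to 8, and 4 µM CDDP in OlaR gave 1 to 3. The difference of OlaR and olaparib responses gave 1 to 3, and olaparib added to 4 µM CDDP gave 1 to 2. Olaparib gave 2 to 6, with 6 without replicate 2 of untreated cells. Between lines, leaving out 1 library gave 4 to 6 in parental and 1 to 2 in OlaR cells. Comparisons not listed kept their count. The shares of all genes called in these fits are not given here.

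With a replicate block, 3 of 10 members were called for olaparib in SUM1315 cells, where 35.7% of all genes were, as CD40 passed (adjusted p = 0.0432), and no other call changed. Deviations of same-numbered libraries correlated at -0.098 to 0.163 in SUM1315 and -0.047 to 0.043 in MDA-MB-468 cells, and libraries were not treated as paired. With log2 CPM of recovered reads the median change of all genes was 0.115 for 4 µM CDDP in SUM1315 cells and 0.101 for the difference of responses with and without olaparib in MDA-MB-468 cells, where it was -0.003 and -0.004 in the reported fits. The lower depth of OlaR libraries limits members with few reads, such as FAS, TNFRSF10A and TNFRSF1B in MDA-MB-468 cells.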
